A study of Mus musculus with 8 samples.

Results

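The oxidative phosphorylation subunit genes are the nuclear genes for the building blocks of respiratory complexes I to IV and of ATP synthase (complex V). They were taken by gene symbol: symbols that begin with Nduf (assembly factors named Ndufaf left out), Uqcr or Atp5, symbols that begin with Cox4 to Cox8, and Sdha to Sdhd, with the brightest probe standing for each gene. The rule found 80 genes among 18312 features of the expression table (99 probes, of which 14 genes had several), and 70 of the 80 passed a filter on dim signal and were tested among 8834 features. Expression was measured on Illumina MouseRef-8 bead arrays in bone marrow macrophages of C57BL/6 mice, grown from marrow with supernatant of L929 cells as the source of the growth factor M-CSF (30% of the medium, 15% after replating on day 7). On day 8 the cells received 10 ng/ml recombinant interferon gamma (IFNγ) together with sheep erythrocytes that carried a mouse IgG2a antibody, IFNγ alone, or the coated erythrocytes alone, or were left unstimulated. The stimuli lasted 6 h, and the coated erythrocytes, called opsonised cells here, were given at 10 per macrophage. The study is about coincidence detection, the response to joint signals of the IFNγ receptor and of FcγRI, a receptor for IgG. Each of the 4 groups had 2 arrays. The labels do not say whether these were separate mice or cultures, and p-values therefore rest on a spread between samples that may be technical.

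Complexes I and II pass electrons from NADH and succinate to ubiquinone, complex III passes them on to cytochrome c, and complex IV hands them to oxygen. Complexes I, III and IV pump protons across the inner mitochondrial membrane, and ATP synthase lets the protons back through a rotating ring and makes ATP. Macrophages activated with IFNγ and microbial signals are known to shift towards glycolysis, with changes in succinate oxidation and in mitochondrial oxidant production. A few subunits are encoded in mitochondrial DNA and were not analysed here.

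Over all probes, the correlation was 0.992 to 0.994 within groups and 0.952 to 0.984 between groups. All 6 macrophage markers on the array were above background, with a summed intensity of 39535 to 39643.6 with both stimuli, 37688.9 to 39388 with IFNγ, 39303 to 41597 with opsonised cells and 41971 to 42942 unstimulated. The sum hides single markers that moved in opposite directions. Against unstimulated cells their log2 changes ran from -0.93 to 1.44 with both stimuli, -1.29 to 2.25 with IFNγ and -0.57 to -0.03 with opsonised cells. Of the markers of other cells, 0 of 4 erythroid, 0 of 5 T and NK cell and 0 of 5 dendritic cell genes were above background in any group, against 4 of 7 neutrophil, 2 of 4 B cell, 1 of 4 mast cell and basophil and 1 of 5 fibroblast genes. The summed neutrophil list lay at 4139.7 to 4200.4 with both stimuli, 3426 to 3725 with IFNγ, 2807 to 3438 with opsonised cells and 3374 to 3466 unstimulated, with Camp, Mpo and Retnlg not above background, and its part in the results was not tested. In RNA of a whole culture, fewer cells of a type and less RNA per cell cannot be told apart.

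With both stimuli, subunit genes were more often lower than higher against unstimulated cells, by small amounts. Of the 70 tested genes 14 fell and 2 rose (limma, adjusted p under 0.05). The accessory complex I gene Ndufa6 fell to 0.607 times the unstimulated level (log2 change -0.72 ± 0.10, adjusted p = 5.06e-06), and the supercomplex gene Cox7a2l fell to 0.619 times (-0.69 ± 0.11, adjusted p = 3.32e-05). Sdhb, the iron-sulfur subunit gene of succinate dehydrogenase, fell to 0.703 times (-0.51 ± 0.11, adjusted p = 0.000931). The 16 genes called are 22.9% of the members tested, against 37.4% of all features called in the same comparison, with 15.5% higher and 21.9% lower. The share of subunit genes called was below that of the whole array, and most of them did not pass the test.

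The fitted log2 change with both stimuli was negative in 52 of 70 members (74.3%), against 54.9% of all features tested. The median was -0.15 over the members and -0.04 over all features. The 2 arrays with both stimuli and the 2 unstimulated arrays did not overlap in 41 members, 36 of them lower with both stimuli, where 66.8% of all features did not overlap and 38.4% were lower without overlap. Below a mean log2 intensity of 9, the median was 0.06 over 13 members and -0.01 over all 5068 features. Between 9 and 11, the median was 0.10 over 5 members and -0.08 over all 2547 features. Between 11 and 12, the median was -0.23 over 18 members and -0.12 over all 655 features. Between 12 and 13, the median was -0.21 over 21 members and -0.14 over all 325 features. Between 13 and 16, the median was -0.15 over 13 members and -0.11 over all 239 features. The 2 bands of 18 dimmer members had medians above 0 and the 3 bands of 52 brighter ones medians below 0, a difference that was not tested, while the median over all features was below 0 in each band. The size of the shift over all members depended on the scaling of the arrays, and its sign was the same under all 17 alternatives. With cyclic loess normalization the members' median was -0.03, with 5 genes higher and 6 lower (35.8% of all features called). With the arrays centred on 8 housekeeping genes it was -0.21, with 1 higher and 25 lower (39.4% of all features called). The housekeeping genes were not all steady: with both stimuli 1 rose and 1 fell, and their log2 changes ran from -0.29 to 0.77.

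**Figure D1:**
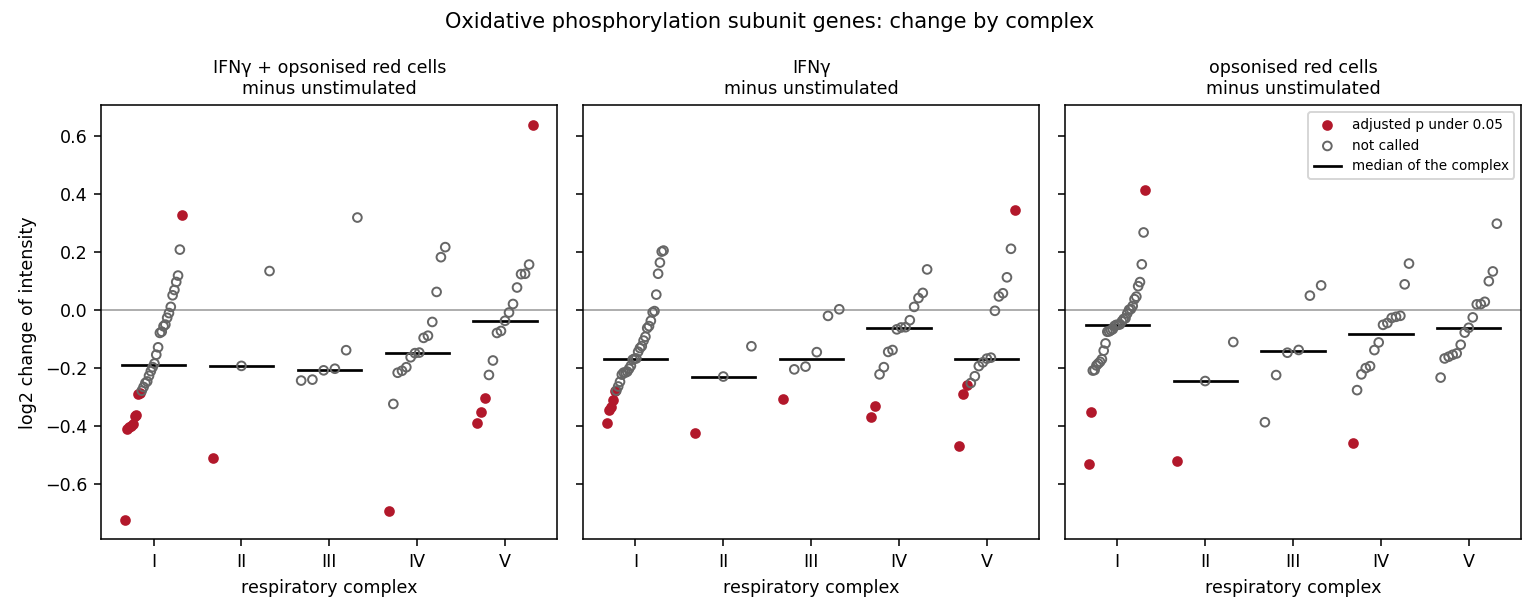
Log2 change of intensity of the 70 tested subunit genes (vertical axis) by respiratory complex (horizontal axis), in a panel each for IFNγ with opsonised red cells, IFNγ and opsonised red cells, all minus unstimulated. Each point is a gene, filled where the adjusted p was under 0.05, and bars are the median of the complex. With both stimuli the 32 complex I genes had a median of -0.19 and the 15 complex V genes one of -0.04.

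The plot of changes by complex shows that the median of every complex lies below 0 in each panel. The median over all features was below 0 too, at -0.04 with both stimuli, -0.05 with IFNγ and -0.02 with opsonised cells. With both stimuli the median of complex V, -0.04, was level with that of all features. Not all genes far from 0 were called, Uqcrb of complex III and Cox6a2 of complex IV among them. Complex I had 9 genes lower and 1 higher of 32 tested (median -0.19), complex II 1 lower of 3 (-0.19), and complex III 0 called of 6 (-0.20; 4 at an unadjusted p under 0.05). Complex IV had 1 lower of 14 (-0.15). Complex V had 3 lower and 1 higher of 15 (-0.04). The shares called were 31.2% in complex I, 33.3% in complex II, 0% in complex III, 7.14% in complex IV and 26.7% in complex V. Of all features 37.4% were called, 15.5% higher and 21.9% lower. Not above background in any group, and so not tested, were Ndufb4 and Ndufs1 of complex I, Uqcrfs1 and Uqcrq of complex III, Cox4i2, Cox7b, Cox7b2, Cox8b and Cox8c of complex IV, and Atp5k of complex V. Cox4i2, Cox7b2, Cox8b and Cox8c are known as forms of particular tissues such as lung, muscle and testis.

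Complex I is an L-shaped enzyme whose core subunits carry the flavin and the iron-sulfur clusters and whose accessory subunits surround them. Of its 5 tested nuclear core genes 2 fell with both stimuli and 0 rose, where 21.9% of all features fell and 15.5% rose. Ndufs7, which holds the iron-sulfur cluster next to ubiquinone, read 2335 and 2806 with both stimuli, 2951 and 2966 with IFNγ, 2837 and 2505 with opsonised cells, and 3359.5 and 3446 unstimulated. Its unstimulated arrays were above the 6 others. The log2 change with both stimuli was -0.41 ± 0.11, adjusted p = 0.00511, and the call was lost without both-stimuli replicate 1 (adjusted p = 0.121). The other core gene that fell was Ndufs8 (-0.36 ± 0.11, adjusted p = 0.0143), which carries iron-sulfur clusters of the same arm and whose call was lost with cyclic loess normalization (adjusted p = 0.111), without both-stimuli replicate 1 (adjusted p = 0.11), unstimulated replicate 1 (adjusted p = 0.0789) or unstimulated replicate 2 (adjusted p = 0.0538). The core genes Ndufv1 (-0.25), Ndufv2 (-0.26) and Ndufs3 (0.10) did not pass the test.

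Among 27 tested accessory genes of complex I, 7 fell and 1 rose with both stimuli, where 21.9% of all features fell and 15.5% rose. Ndufa6, a member of the LYR protein family that binds the mitochondrial acyl carrier protein, read 3678 and 3738 with both stimuli, 5007 and 4354 with IFNγ, 4381 and 4101 with opsonised cells, and 5892 and 6345 unstimulated. All 6 stimulated arrays were below both unstimulated ones, and those with both stimuli were the lowest. Ndufb8, a subunit of the membrane arm, read 8235 and 8329.9 with both stimuli, 8637 and 9022 with IFNγ, 9877 and 9592 with opsonised cells, and 10586 and 11309 unstimulated, with no overlap between groups and the unstimulated arrays the highest. Its log2 change with both stimuli was -0.40 ± 0.09, adjusted p = 0.00122. Ndufa6 and Ndufb8 kept their calls with both stimuli under all 17 processing alternatives run. The promoter of Ndufa6 is shown because it is the subunit gene with the most negative change with both stimuli. The stretch runs from 200 bases before to 30 bases after the transcription start in RefSeq's GRCm38.p6 annotation (chr15:82354262-82354491, minus strand), and a match to the NRF1 motif of respiratory genes begins 23 bases past the start and runs beyond the end of the stretch, so no letters are in capitals.
Ndufa6: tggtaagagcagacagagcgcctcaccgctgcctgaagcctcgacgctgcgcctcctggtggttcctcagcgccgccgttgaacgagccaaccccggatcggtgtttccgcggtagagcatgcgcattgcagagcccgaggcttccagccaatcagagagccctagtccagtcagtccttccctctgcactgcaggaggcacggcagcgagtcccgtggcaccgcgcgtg

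Ndufb3, an accessory subunit of the membrane arm, read 1715 and 1984 with both stimuli, 1948 and 2206 with IFNγ, 2461 and 2252 with opsonised cells, and 2657 and 2199.9 unstimulated. The arrays with both stimuli were below the unstimulated ones (-0.39 ± 0.12, adjusted p = 0.0123), while those with opsonised cells overlapped them. Its call was lost with cyclic loess normalization (adjusted p = 0.0821), without both-stimuli replicate 1 (adjusted p = 0.148) or unstimulated replicate 1 (adjusted p = 0.196). The remaining accessory genes that fell with both stimuli were Ndufc2 (-0.40 ± 0.10), Ndufa2 (-0.36 ± 0.10), Ndufa10 (-0.29 ± 0.11) and Ndufv3 (-0.29 ± 0.10). Ndufv3 is a small subunit at the NADH end of the enzyme, and its dimmest probe of 3 lay at 0.07 where the other 2 lay at -0.29 and -0.21. These calls were lost under single alternatives as well: that of Ndufc2 without unstimulated replicate 2 (adjusted p = 0.0717), that of Ndufa2 with cyclic loess normalization (adjusted p = 0.0806) or without both-stimuli replicate 1 (adjusted p = 0.0605), that of Ndufa10 with cyclic loess normalization (adjusted p = 0.256), without the filter on dim probes (adjusted p = 0.0734), without both-stimuli replicate 1 (adjusted p = 0.149), both-stimuli replicate 2 (adjusted p = 0.0822) or unstimulated replicate 1 (adjusted p = 0.256) and that of Ndufv3 with cyclic loess normalization (adjusted p = 0.238), with the mean of all probes (adjusted p = 0.233), without both-stimuli replicate 1 (adjusted p = 0.274), unstimulated replicate 1 (adjusted p = 0.0911) or unstimulated replicate 2 (adjusted p = 0.101).

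Ndufs4, an accessory subunit at the NADH end whose loss causes Leigh syndrome in patients, rose with both stimuli. It read 3771 and 3678 with both stimuli, 3071 and 3410.4 with IFNγ, 3435 and 3189 with opsonised cells, and 2652 and 3318 unstimulated. The arrays with both stimuli were the highest of the 8 (log2 change 0.33 ± 0.11, adjusted p = 0.0259). All 4 of its probes were higher with both stimuli, by 0.33 to 0.74. The call was lost with housekeeping centring (adjusted p = 0.0686), without both-stimuli replicate 1 (adjusted p = 0.11), both-stimuli replicate 2 (adjusted p = 0.0716) or unstimulated replicate 1 (adjusted p = 0.366). At the other end of the range stood Ndufa1, a membrane arm subunit, which read 6102 and 5409.7 with both stimuli, 4769 and 5856 with IFNγ, 6379 and 5353 with opsonised cells, and 5519.7 and 6062 unstimulated. Its groups overlapped throughout, and its log2 change with both stimuli, -0.01 ± 0.12, was the smallest of complex I.

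Complex II, succinate dehydrogenase, is also an enzyme of the citric acid cycle. Sdhb read 1377 and 1488 with both stimuli, 1446 and 1593 with IFNγ, 1319 and 1527 with opsonised cells, and 2051 and 2022 unstimulated. The 6 stimulated arrays overlapped each other and all were below both unstimulated ones, and its call with both stimuli was kept under all 17 alternatives. A further Sdhb probe that passed the filter was lower by less, at -0.17 with both stimuli and -0.21 with opsonised cells. With IFNγ it was at -0.02. Its arrays with both stimuli (1197 and 1365) overlapped the unstimulated ones (1310 and 1586). The remaining probe was near background. The membrane anchor gene Sdhd read 269.8 and 363 with both stimuli, 227 and 260.4 with IFNγ, 234 and 248 with opsonised cells, and 286 and 284 unstimulated, close to the background floor of 205, which compresses differences. Its arrays with both stimuli overlapped the unstimulated ones (0.13 ± 0.13, adjusted p = 0.435) and lay above those of the single stimuli. The other anchor gene, Sdhc, was at -0.19 ± 0.10, adjusted p = 0.153. The Sdhb promoter (chr4:140961071-140961300, plus strand) is shown because the brightest Sdhb probe was lower in all 3 stimulated groups. It holds an ETS family match that begins 6 bases past the start, in capitals.
Sdhb: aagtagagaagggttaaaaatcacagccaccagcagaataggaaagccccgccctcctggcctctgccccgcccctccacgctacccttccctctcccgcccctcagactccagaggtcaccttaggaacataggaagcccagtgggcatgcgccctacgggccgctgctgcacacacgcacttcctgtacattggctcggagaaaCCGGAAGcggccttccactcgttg

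Complex III, the cytochrome bc1 complex, had 0 genes called with both stimuli of 6 tested. Uqcrb, a subunit near the ubiquinone site, read 1586 and 1619 with both stimuli, 1076 and 1538 with IFNγ, 979.9 and 985 with opsonised cells, and 1399.9 and 1178 unstimulated. With both stimuli it was above the arrays of the other 3 groups, and with opsonised cells alone below them. Its log2 change was 0.32 ± 0.14, adjusted p = 0.0715 with both stimuli and -0.39 ± 0.14, adjusted p = 0.0684 with opsonised cells, against unstimulated cells, and neither passed the test. Uqcrc2, a core protein of the complex, read 4411 and 4318 with both stimuli, 4565 and 4914 with IFNγ, 4729.8 and 5487 with opsonised cells, and 4736 and 4868 unstimulated, with a log2 change of -0.14 ± 0.10, adjusted p = 0.313 with both stimuli. The hinge protein gene Uqcrh, which helps cytochrome c dock, was at -0.24 ± 0.10, Uqcrc1 at -0.24 ± 0.11, Uqcr11 at -0.21 ± 0.11 and Uqcr10 at -0.20 ± 0.09.

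Complex IV is cytochrome c oxidase. Cox7a2l encodes a relative of its subunit 7a that ties complexes III and IV into supercomplexes, and C57BL/6 mice are known to carry a shortened form of the protein. It read 2279 and 2522 with both stimuli, 3345 and 2689 with IFNγ, 2907 and 2727 with opsonised cells, and 3769 and 3974 unstimulated. All stimulated arrays were below both unstimulated ones, those with both stimuli were the lowest, and the call was kept under all 17 alternatives. With both stimuli, the other 13 tested genes of complex IV did not pass the test against unstimulated cells. Cox6a1 read 9909 and 9592 with both stimuli, 10402 and 9215 with IFNγ, 10234 and 9466 with opsonised cells, and 10727 and 9372 unstimulated, with groups that overlapped throughout (log2 change with both stimuli -0.04 ± 0.10). Its other probe differed, at -0.21 with both stimuli and at -0.37 with IFNγ, where its 2 IFNγ arrays were below both unstimulated ones. Cox4i1 was at -0.15 ± 0.12, Cox5a at -0.09 ± 0.10, Cox5b at -0.10 ± 0.10 and Cox7a2 at 0.22 ± 0.14. The promoter of Cox7a2l (chr17:83514304-83514533, minus strand), shown because it is the complex IV gene with the most negative change, holds 0 of the 3 respiratory motifs searched.
Cox7a2l: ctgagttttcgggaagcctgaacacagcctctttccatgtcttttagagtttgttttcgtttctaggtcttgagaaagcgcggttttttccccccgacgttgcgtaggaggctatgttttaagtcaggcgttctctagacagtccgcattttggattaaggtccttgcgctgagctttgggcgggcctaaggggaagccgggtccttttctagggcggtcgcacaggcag

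Ndufa4 was first named as a complex I gene and encodes a subunit of complex IV. AA467197, also known as Nmes1, is no member by symbol and encodes a paralog of Ndufa4 that can take its place in complex IV. AA467197 read 13404 and 12170.2 with both stimuli, 9812 and 10995 with IFNγ, 1668 and 1506 with opsonised cells, and 1064 and 1221 unstimulated. The arrays with IFNγ, with or without opsonised cells, were far above all others (log2 change 3.49 ± 0.11, adjusted p = 1.56e-17 with both stimuli, 11.2-fold, and 3.19 ± 0.11, adjusted p = 1e-16 with IFNγ, 9.11-fold). With opsonised cells alone it rose less (0.48 ± 0.11, adjusted p = 0.00411). Ndufa4 read 6345 and 6761 with both stimuli, 6142 and 5959 with IFNγ, 8329.9 and 7855 with opsonised cells, and 7303 and 7919.6 unstimulated, and here the 4 arrays with IFNγ were below the 4 without it. Its log2 change was -0.33 ± 0.10, adjusted p = 0.0139 with IFNγ and -0.22 ± 0.10, adjusted p = 0.0824 with both stimuli. The call with IFNγ was lost with cyclic loess normalization (adjusted p = 0.0913), without IFNγ replicate 1 (adjusted p = 0.063), IFNγ replicate 2 (adjusted p = 0.115) or unstimulated replicate 2 (adjusted p = 0.14). Ndufa4 and AA467197 were named with these values known. Their promoters (chr6:11907421-11907650, minus strand, and chr2:122637687-122637916, plus strand) are shown as those of a pair of paralogs whose probes moved in opposite directions with IFNγ. Ndufa4 holds none of the 3 respiratory motifs spelled out further on, and none stands in the AA467197 promoter either.
Ndufa4: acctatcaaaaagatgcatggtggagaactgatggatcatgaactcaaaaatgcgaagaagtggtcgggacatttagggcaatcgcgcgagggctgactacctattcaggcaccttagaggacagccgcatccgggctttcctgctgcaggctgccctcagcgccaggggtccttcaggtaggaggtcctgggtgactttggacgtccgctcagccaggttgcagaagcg
AA467197: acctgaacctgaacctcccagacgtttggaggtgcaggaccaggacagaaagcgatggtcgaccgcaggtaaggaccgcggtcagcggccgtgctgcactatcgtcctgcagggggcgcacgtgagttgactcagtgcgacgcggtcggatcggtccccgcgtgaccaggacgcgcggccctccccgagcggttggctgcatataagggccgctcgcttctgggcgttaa

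**Figure D2:**
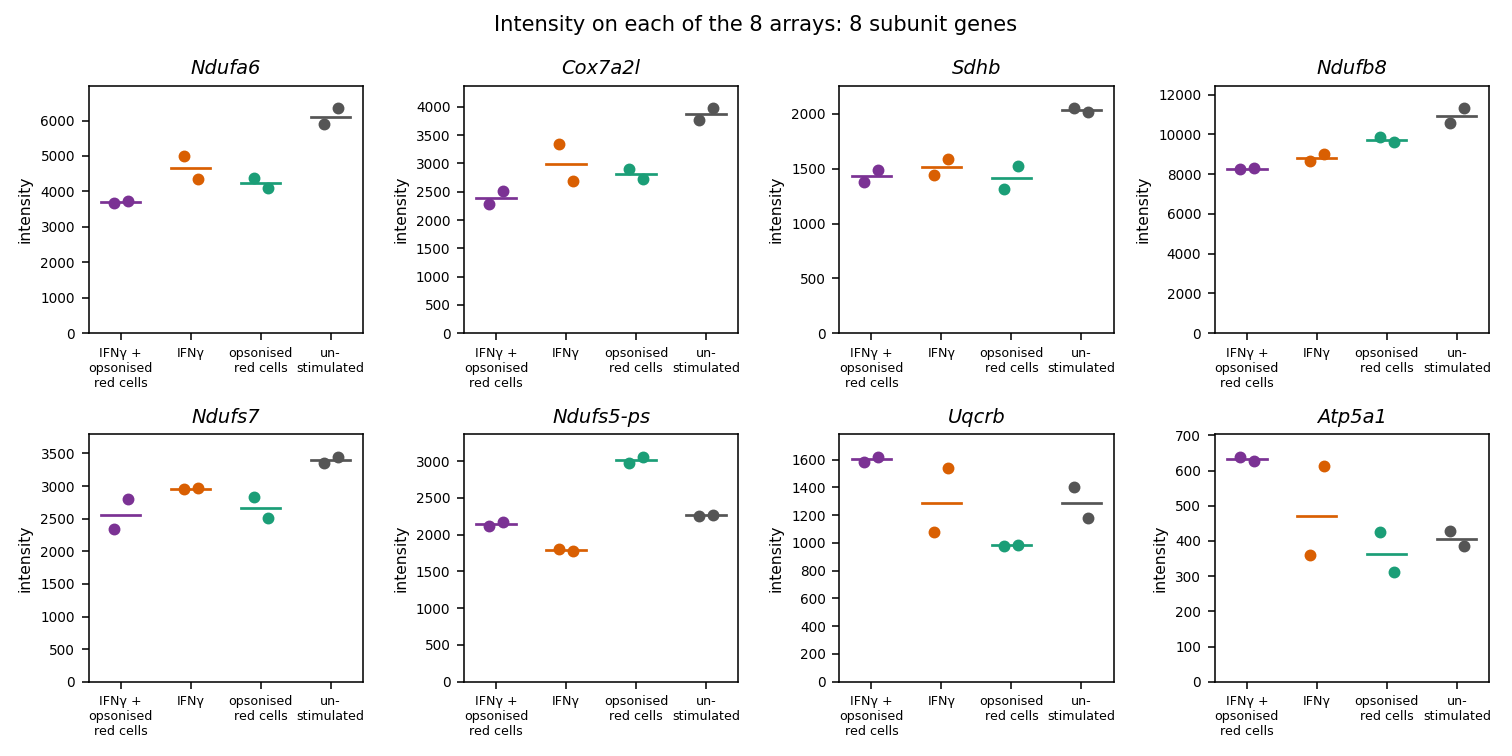
Intensity on a linear axis from 0 (vertical) of 8 subunit genes in the 4 groups (horizontal). Points are the 2 arrays of a group and bars their geometric mean; Ndufa6, Cox7a2l, Sdhb, Ndufb8 and Ndufs7 are highest in the unstimulated arrays, while Uqcrb and Atp5a1 are highest with both stimuli and Ndufs5-ps with opsonised cells.

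ATP synthase consists of the catalytic F1 head, the c-ring that turns, and a peripheral stalk. Atp5a1, the alpha subunit of the head, rose with both stimuli. Its only probe was dim, with a mean intensity of 474 against 22307 for the beta subunit gene Atp5b. How well the probe reads the gene was not tested. Atp5a1 read 639 and 626 with both stimuli, 361 and 613 with IFNγ, 426 and 311 with opsonised cells, and 429 and 385 unstimulated. The arrays with both stimuli were the highest of the 8, although 1 of the IFNγ arrays came close, and the log2 change was 0.64 ± 0.18, adjusted p = 0.00614. Its call was lost without unstimulated replicate 2 (adjusted p = 0.0718). Atp5b, the catalytic beta subunit, read 21177 and 22205 with both stimuli, 24042 and 23140.5 with IFNγ, 22924 and 21353 with opsonised cells, and 21806 and 21806 unstimulated, near the top of the array's range, with the arrays of both stimuli on either side of the unstimulated ones (log2 change -0.01 ± 0.09). The gamma subunit gene Atp5c1, the shaft of the motor, read 5742 and 5827 with both stimuli, 5754 and 5919 with IFNγ, 6929.9 and 7633 with opsonised cells, and 6722 and 7559.5 unstimulated. Its 4 arrays with IFNγ were below the 4 without it (-0.30 ± 0.10, adjusted p = 0.0192 with both stimuli), and the call was lost with cyclic loess normalization (adjusted p = 0.186), without both-stimuli replicate 1 (adjusted p = 0.0849), both-stimuli replicate 2 (adjusted p = 0.0627) or unstimulated replicate 2 (adjusted p = 0.196). Atp5j2, a small membrane subunit, also fell (-0.35 ± 0.09, adjusted p = 0.00397), a call lost with cyclic loess normalization (adjusted p = 0.0727) or without both-stimuli replicate 2 (adjusted p = 0.0639). The head and its central stalk, as 5 genes, held 1 lower and 1 higher with both stimuli, where 21.9% of all features were lower and 15.5% higher.

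Atp5g1, Atp5g2 and Atp5g3 encode the same mature c-ring subunit with different targeting sequences. Atp5g2 fell with both stimuli and read 2657 and 2608 with both stimuli, 2724 and 2277 with IFNγ, 3019 and 2850.4 with opsonised cells, and 3528 and 3366 unstimulated. Its stimulated arrays were below both unstimulated ones in all 3 groups (-0.39 ± 0.11, adjusted p = 0.00655 with both stimuli), a call lost with cyclic loess normalization (adjusted p = 0.0616) or without unstimulated replicate 1 (adjusted p = 0.0571). Atp5g1 read 5768 and 6428 with both stimuli, 4744 and 4898 with IFNγ, 6172 and 7303 with opsonised cells, and 5091 and 5856 unstimulated, with arrays of both stimuli that overlapped the unstimulated ones (0.16 ± 0.11, adjusted p = 0.273). Atp5g3 read 17108 and 15449.7 with both stimuli, 17463 and 18298 with IFNγ, 17463 and 15517 with opsonised cells, and 16609.9 and 17741 unstimulated, and again the arrays with both stimuli overlapped the unstimulated ones (-0.08 ± 0.09, adjusted p = 0.545). The 3 promoters are shown because the genes give the same mature protein. Those of Atp5g2 (chr15:102671018-102671247, minus strand) and Atp5g3 (chr2:73911297-73911526, minus strand) hold an NRF1 match, in capitals, which begins 42 bases before the start in Atp5g2 and 12 bases past it in Atp5g3. That of Atp5g1 (chr11:96075602-96075831, minus strand) holds none of the 3 respiratory motifs.
Atp5g1: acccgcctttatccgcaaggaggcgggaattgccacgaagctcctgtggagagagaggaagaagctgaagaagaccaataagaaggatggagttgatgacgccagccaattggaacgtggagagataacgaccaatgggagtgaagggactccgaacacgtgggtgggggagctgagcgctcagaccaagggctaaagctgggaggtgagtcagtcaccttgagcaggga
Atp5g2: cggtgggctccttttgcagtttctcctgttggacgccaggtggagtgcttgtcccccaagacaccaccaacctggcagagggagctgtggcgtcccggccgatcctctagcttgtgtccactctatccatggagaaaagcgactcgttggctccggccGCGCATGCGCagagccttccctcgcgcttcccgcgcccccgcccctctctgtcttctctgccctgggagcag
Atp5g3: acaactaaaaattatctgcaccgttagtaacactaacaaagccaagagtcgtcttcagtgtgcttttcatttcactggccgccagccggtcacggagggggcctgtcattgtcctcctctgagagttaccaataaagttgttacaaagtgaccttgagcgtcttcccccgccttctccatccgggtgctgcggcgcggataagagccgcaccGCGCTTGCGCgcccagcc

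**Figure D3:**
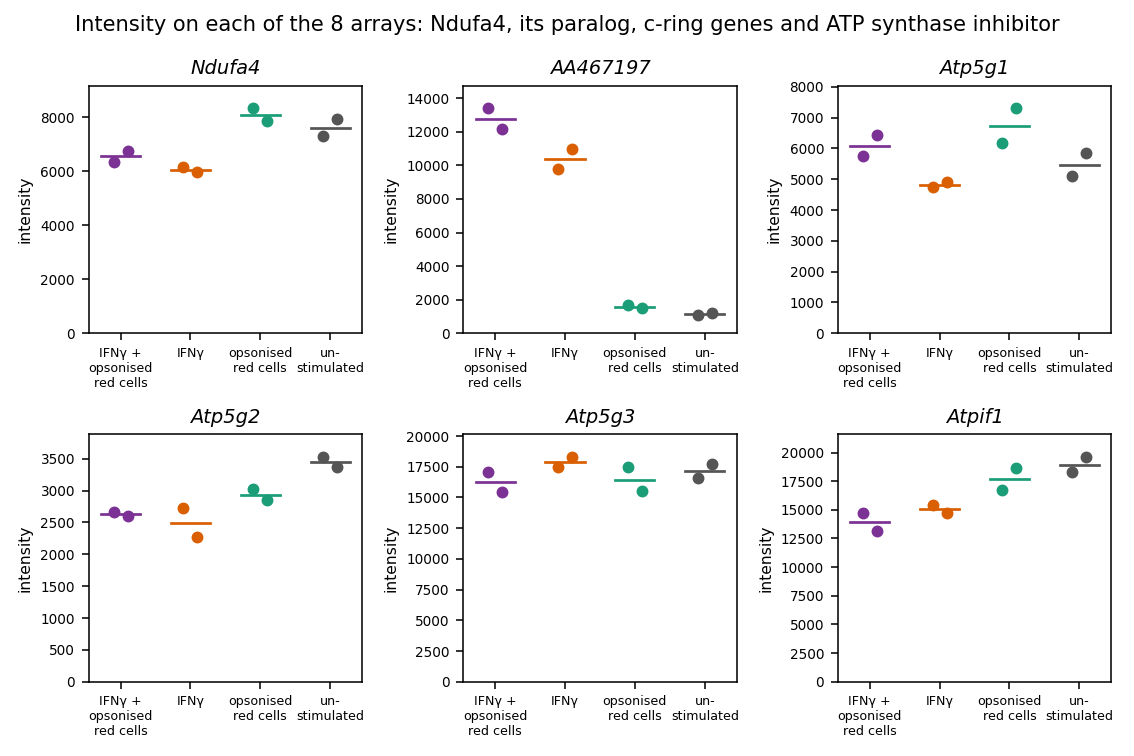
Intensity on a linear axis from 0 (vertical) of Ndufa4, its paralog AA467197, the c-ring genes Atp5g1, Atp5g2 and Atp5g3, and the ATP synthase inhibitor gene Atpif1 in the 4 groups (horizontal). Points are the 2 arrays of a group and bars their geometric mean; the 4 arrays with IFNγ are above the 4 without it for AA467197 and below them for Ndufa4 and Atpif1. Heights are not comparable between panels.

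With IFNγ alone, 12 subunit genes fell and 1 rose of 70 tested. Atp5g2 (-0.47 ± 0.11, adjusted p = 0.00235), Sdhb (-0.42 ± 0.11, adjusted p = 0.00745), Ndufa6 (-0.39 ± 0.10, adjusted p = 0.00697) and Cox7a2l (-0.37 ± 0.11, adjusted p = 0.0204) had the most negative log2 changes. Atp5pb, the peripheral stalk subunit b that holds the head still, was the gene that rose (0.35 ± 0.11, adjusted p = 0.0286). The 13 called are 18.6% of the members, against 23.2% of all features, with 10.1% higher and 13.2% lower. The change was negative in 55 members (78.6%), against 58.5% of all features, with a median of -0.15 against -0.05. Arrays did not overlap in 40 members (37 lower), against 61.6% of all features (37.3% lower). In the intensity bands used above, from dim to bright, the members' medians with IFNγ were -0.06, 0.003, -0.20, -0.18 and -0.14. Those over all features were -0.03, -0.08, -0.12, -0.15 and -0.10. By complex, 5 genes fell in complex I, 1 in complex II, 1 in complex III, 2 in complex IV and 3 in complex V.

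Atp5pb read 3541 and 2797 with both stimuli, 3761 and 3578 with IFNγ, 3201 and 2987 with opsonised cells, and 2948 and 2823 unstimulated. Its IFNγ arrays were the highest, and the arrays with both stimuli spread so widely that they overlapped those of opsonised and of unstimulated cells. The other genes that fell with IFNγ were Ndufa2 (-0.34), Ndufs5-ps (-0.33), Ndufa4 (-0.33), Ndufb8 (-0.31), Uqcrh (-0.31), Atp5c1 (-0.29), Atp5j2 (-0.26) and Ndufa13 (-0.28). Ndufa13, also called GRIM-19, was first described as a gene of interferon and retinoic acid induced cell death. Of the genes that fell with IFNγ, 8 also fell with both stimuli, in comparisons that share the unstimulated arrays. How many of all features fell in both is not given here, so this overlap is not read as a trait of the subunit genes. Each of the 13 calls was lost without at least 1 of the IFNγ or unstimulated arrays, that of Atp5g2 without IFNγ replicate 2 (adjusted p = 0.0975), that of Sdhb with the mean of all probes (adjusted p = 0.121), without IFNγ replicate 1 (adjusted p = 0.11) or unstimulated replicate 1 (adjusted p = 0.0528), that of Ndufa6 without IFNγ replicate 2 (adjusted p = 0.157) or unstimulated replicate 2 (adjusted p = 0.0858), and that of Cox7a2l with cyclic loess normalization (adjusted p = 0.0996), without IFNγ replicate 2 (adjusted p = 0.356), unstimulated replicate 1 (adjusted p = 0.0586) or unstimulated replicate 2 (adjusted p = 0.138). That of Atp5pb was lost with housekeeping centring (adjusted p = 0.0664), without the filter on dim probes (adjusted p = 0.0538), without IFNγ replicate 1 (adjusted p = 0.175), IFNγ replicate 2 (adjusted p = 0.0887), unstimulated replicate 1 (adjusted p = 0.0783) or unstimulated replicate 2 (adjusted p = 0.156). The count with IFNγ rested on single arrays: it fell without any 1 of the IFNγ or unstimulated arrays. The share of all features called fell in each of these fits as well. With single arrays left out, the members' median with IFNγ was -0.17 to -0.12. With cyclic loess normalization 3 fell and 1 rose, and with housekeeping centring 16 fell and 0 rose, where 21.1% and 26.4% of all features were called.

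With opsonised cells alone, 4 subunit genes fell and 1 rose of 70 tested. Ndufa6 (-0.53 ± 0.10, adjusted p = 0.000892), Sdhb (-0.52 ± 0.11, adjusted p = 0.00257), Cox7a2l (-0.46 ± 0.11, adjusted p = 0.00767) and Ndufs7 (-0.35 ± 0.11, adjusted p = 0.0379) fell, and the feature named Ndufs5-ps rose (0.41 ± 0.10, adjusted p = 0.00763). The 5 called are 7.14% of the members, against 13% of all features, with 6.42% higher and 6.58% lower. The change was negative in 50 members (71.4%), against 53.3% of all features, with a median of -0.06 against -0.02. Arrays did not overlap in 27 members (21 lower), against 52.7% of all features (28.4% lower). By the brightest probe of each gene, Ndufa6, Sdhb and Cox7a2l were the 3 members called lower in all 3 stimulated groups, each set against the same unstimulated arrays. The share of all features lower in all 3 is not given here, so the number is not read as a trait of the subunit genes. A further Sdhb probe was at -0.02 with IFNγ. The calls of Ndufa6 and Sdhb with opsonised cells were kept under all 17 alternatives, while that of Cox7a2l was lost without opsonised-cell replicate 2 (adjusted p = 0.0613) or unstimulated replicate 2 (adjusted p = 0.0844) and that of Ndufs7 in 9 of 17 alternatives.

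Ndufs5-ps read 2123 and 2173 with both stimuli, 1810.3 and 1779 with IFNγ, 2969 and 3056 with opsonised cells, and 2252 and 2271 unstimulated. The arrays of each group lay close together, with those of opsonised cells the highest and those of IFNγ the lowest. The symbol is that of a pseudogene of Ndufs5, an accessory complex I subunit gene, and no probe here carried the symbol Ndufs5, so signal of the gene and of the pseudogene cannot be told apart. Its call with opsonised cells was lost without unstimulated replicate 1 (adjusted p = 0.0585) or unstimulated replicate 2 (adjusted p = 0.0504).

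Both stimuli together differed from IFNγ alone in 4 subunit genes, 2 higher and 2 lower (15% of all features were called, 6.98% higher and 8.01% lower). Cox6c (0.40 ± 0.12, adjusted p = 0.0236), a small complex IV subunit gene, and Atp5g1 (0.34 ± 0.11, adjusted p = 0.037) were higher with both stimuli. Ndufa6 (-0.33 ± 0.10, adjusted p = 0.0302) and Cox6a2 (-0.46 ± 0.14, adjusted p = 0.0288), the heart and muscle form of subunit 6a, were lower. Cox6c read 3038 and 3478 with both stimuli, 2360.3 and 2557 with IFNγ, 2380.5 and 2637 with opsonised cells, and 2544 and 3224 unstimulated. Its arrays with both stimuli were above those of either single stimulus and overlapped the unstimulated ones. Cox6a2 read 249 and 319.7 with both stimuli, 426 and 356 with IFNγ, 264 and 347 with opsonised cells, and 344 and 363 unstimulated, at values not far above the floor of 205, with arrays of both stimuli below those of IFNγ alone. The call of Cox6c was lost without both-stimuli replicate 2 (adjusted p = 0.216), IFNγ replicate 1 (adjusted p = 0.196) or IFNγ replicate 2 (adjusted p = 0.0663), that of Atp5g1 without the filter on dim probes (adjusted p = 0.06), without the intensity trend (adjusted p = 0.0558), without both-stimuli replicate 2 (adjusted p = 0.251), IFNγ replicate 1 (adjusted p = 0.201) or IFNγ replicate 2 (adjusted p = 0.127), that of Ndufa6 without the filter on dim probes (adjusted p = 0.0593), without both-stimuli replicate 1 (adjusted p = 0.124), both-stimuli replicate 2 (adjusted p = 0.1) or IFNγ replicate 1 (adjusted p = 0.334) and that of Cox6a2 without both-stimuli replicate 1 (adjusted p = 0.294) or IFNγ replicate 1 (adjusted p = 0.286). Fewer members were called without IFNγ replicate 1 or without both-stimuli replicate 2, and the share of all features called was lower there as well. The median over the members was -0.02, against -0.01 over all features.

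Set against opsonised cells alone, both stimuli gave 5 subunit genes higher and 6 lower (29.4% of all features were called, 12% higher and 17.4% lower). Higher were Atp5a1 (0.80 ± 0.18, adjusted p = 0.00123), Uqcrb (0.71 ± 0.14, adjusted p = 0.000329), Sdhd (0.38 ± 0.13, adjusted p = 0.0265), Cox6c (0.38 ± 0.12, adjusted p = 0.0202) and Cox6b2 (0.26 ± 0.10, adjusted p = 0.0437), known as the testis form of subunit 6b and here at the background floor. Cox6b2 passed the filter on dim signal only through its 2 arrays with both stimuli, the group in which it was called higher. Its call is therefore no evidence of a rise. Lower were Ndufs5-ps (-0.49 ± 0.10, adjusted p = 0.000733), Ndufb3 (-0.35), Atp5c1 (-0.33), Ndufa8 (-0.32), Ndufa4 (-0.30) and Uqcr10 (-0.25). Uqcrb and Ndufs5-ps kept this call under all 17 alternatives, while that of Atp5a1 was lost without opsonised-cell replicate 2 (adjusted p = 0.0614), that of Sdhd with housekeeping centring (adjusted p = 0.0612), without both-stimuli replicate 2 (adjusted p = 0.402), opsonised-cell replicate 1 (adjusted p = 0.145) or opsonised-cell replicate 2 (adjusted p = 0.0677) and that of Cox6c with housekeeping centring (adjusted p = 0.0521), without both-stimuli replicate 2 (adjusted p = 0.189) or opsonised-cell replicate 1 (adjusted p = 0.134). The call of Cox6b2 was lost in 10 of 16 alternatives (with the replicate block, adjusted p = 0.0505) and that of Uqcr10 in 11 of 17 (with the block, 0.0504). The call of Ndufa8 was lost in 6 of 17, that of Ndufb3 in 4 of 17, that of Atp5c1 in 4 of 17 and that of Ndufa4 in 3 of 17, at adjusted p-values up to 0.244. The split turned with the scaling: 6 higher and 1 lower with cyclic loess normalization, and 2 higher and 15 lower with housekeeping centring. The shares of all features called were 27.6% and 32.6%. The members' median was -0.08, against -0.04 over all features, and 0.02 with loess. Without both-stimuli replicate 2 fewer members were called, and the share of all features called was lower too.

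The interaction asks whether the log2 change made by opsonised cells differs between cells with and without IFNγ. No subunit gene passed this test (0 of 70 by limma, 8 at an unadjusted p under 0.05), where 2.6% of all features did, 1.21% higher and 1.39% lower. The most positive values were those of Uqcrb (0.70 ± 0.19, adjusted p = 0.0541), Sdhd (0.61 ± 0.18, adjusted p = 0.0742) and Cox6c (0.60 ± 0.17, adjusted p = 0.0624). In each of these 3, the arrays with both stimuli were above those with opsonised cells alone. The count was 1 or 2 under some alternatives, among them 2 without IFNγ replicate 2 and 1 without both-stimuli replicate 1 or unstimulated replicate 1. The median interaction over the members was 0.04, against -0.0007 over all features.

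Log2 changes beyond those of any subunit gene occurred among genes that assemble, feed or regulate the complexes. Their lists were chosen with earlier results of these data known, so the shares called do not test them. With both stimuli, 5 of 32 tested assembly factors rose and 4 fell (28.1% called, against 37.4% of all features; median -0.03). Coa5, a complex IV assembly factor gene, read 4977 and 4526 with both stimuli, 4074 and 3602 with IFNγ, 2159.5 and 2243 with opsonised cells, and 1744 and 1607 unstimulated, and the 4 arrays with IFNγ were above the 4 without it (log2 change 1.50 ± 0.11, adjusted p = 7.38e-11 with both stimuli). Ndufaf7, which methylates a complex I subunit, fell (-0.54 ± 0.13), as did the succinate dehydrogenase factor Sdhaf4 (-0.49 ± 0.12) and the copper factor Coa6 (-0.47 ± 0.16). Among 18 electron carrier, ubiquinone and metabolite exchange genes 3 rose and 2 fell (27.8% called; median 0.01), with Vdac2, a channel of the outer membrane, at 0.64 ± 0.12, Coq10b, a ubiquinone-binding protein, at 0.57 ± 0.12, and the electron transfer flavoprotein genes Etfa at -0.38 ± 0.10 and Etfdh at -0.36 ± 0.14. The cytochrome c gene Cycs was at 0.24 ± 0.10 and cytochrome c1, Cyc1, at 0.02 ± 0.11.

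Of 12 tested regulators of mitochondrial gene expression, 2 rose and 4 fell with both stimuli (50% called, against 37.4% of all features; median -0.11). Ppargc1b, a coactivator that drives respiratory genes, read 728 and 681 with both stimuli, 640.4 and 629 with IFNγ, 261 and 318 with opsonised cells, and 252 and 276 unstimulated. It was raised on the 4 arrays with IFNγ (1.42 ± 0.12, adjusted p = 2.47e-09 with both stimuli, 1.27 ± 0.12, adjusted p = 2.86e-08 with IFNγ), while the subunit genes had medians of -0.15 in both comparisons. Esrra, the nuclear receptor ERRα that works with it, rose (0.48 ± 0.11), whereas the mitochondrial RNA polymerase gene Polrmt (-0.52 ± 0.12) and Tfb1m (-0.47 ± 0.11) fell. Nrf1 (-0.02 ± 0.12) and the ETS factor gene Gabpa (0.09 ± 0.12) did not pass the test. The 68 mitochondrial ribosomal protein genes held 7 higher and 22 lower (42.6% called; median -0.09), led by Mrpl52 (0.76 ± 0.16), Mrps24 (-0.62 ± 0.10), Mrpl23 (-0.59 ± 0.12) and Mrps18b (0.58 ± 0.12). The 16 import genes held 2 higher and 1 lower (18.8% called; median -0.05), with Timm21 at -0.65 ± 0.12, Timm10 at 0.41 ± 0.15 and Timm17a at 0.29 ± 0.11.

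Of a mixed list of 9 further genes 6 were tested, among them AA467197, the inhibitor Atpif1 and factors such as Dmac1, Dmac2l and Higd2a. With both stimuli 1 of the 6 rose, AA467197, and 4 fell (83.3% called, against 37.4% of all features). The list was chosen with earlier results of these data known, so its share called is not a test. Dmac1, a factor for the distal membrane arm of complex I, read 2168 and 2144 with both stimuli, 3307 and 2983 with IFNγ, 2295 and 1808 with opsonised cells, and 3787 and 4025 unstimulated, and its arrays with opsonised cells, with or without IFNγ, were below the rest (log2 change -0.86 ± 0.12, adjusted p = 2.4e-06 with both stimuli and -0.94 ± 0.12, adjusted p = 3.61e-06 with opsonised cells). Atpif1, the inhibitor that stops ATP synthase from running backwards, read 14715 and 13145 with both stimuli, 15449.7 and 14715 with IFNγ, 16722 and 18669 with opsonised cells, and 18298 and 19614 unstimulated. The 4 arrays with IFNγ were below the 4 without it (-0.45 ± 0.09, adjusted p = 0.000537 with both stimuli). Dmac2l (-0.57 ± 0.11), a factor of ATP synthase, and Higd2a (-0.42 ± 0.11), a factor of complex IV supercomplexes, also fell.

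Promoter motifs are a feature that the choice by symbol did not use. RefSeq promoters of GRCm38.p6 (250 bases before to 50 after the start) matched 65 of the 80 genes, and 3 motifs of respiratory gene promoters were searched on both strands. No motif contains another, but matches may overlap. A gene counted when any of its promoters held the motif. The NRF1 motif, read as GCGC, 2 bases of any kind and GCGC again, occurred in 16 of 65 (24.6%). This compares with 7.0% of all 27025 genes with a promoter and 14.5% of the 6643 other tested genes with one. The 65 include members that were not tested, Atp5k and Ndufb4 with an NRF1 match among them. The ETS motif CCGGAAG, bound by GABP, occurred in 24.6%, against 9.93% and 20.6%. The YY1 motif AAGATGGCG occurred in 10.8%, against 1.64% and 3.64%. At least 1 of the 3 stood in 33 of 65 (50.8%), against 16.6% and 33.9%. Of 13 genes that fell with both stimuli and had a promoter in the table, 7 held at least 1 of the 3. A match is a description of the letters and not a site of binding, and a window without a match says nothing of the factor.

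**Figure D4:**
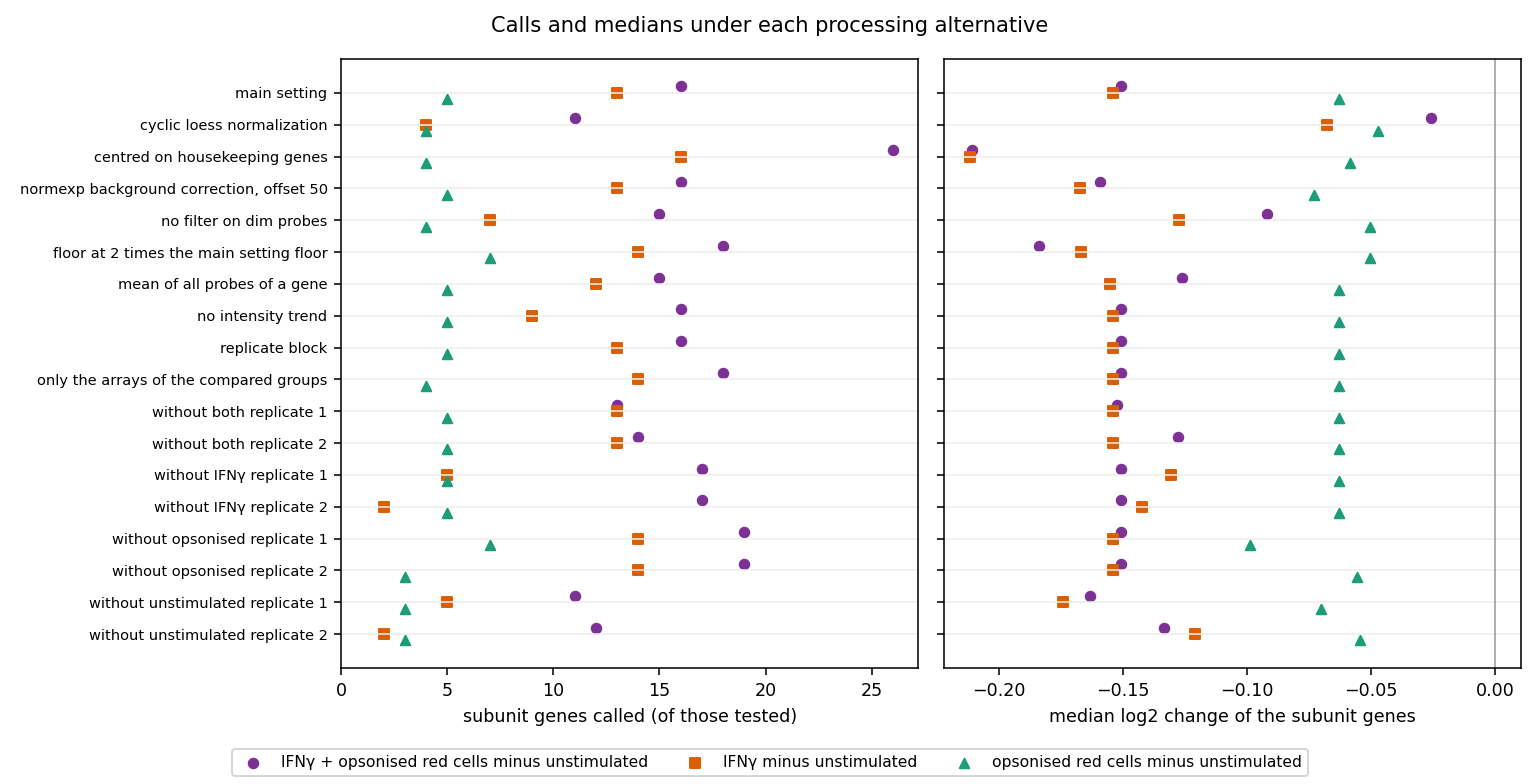
Number of subunit genes called at an adjusted p under 0.05 (left, horizontal axis) and their median log2 change (right, horizontal axis) under the main setting and 17 alternatives (rows), for each stimulated group minus unstimulated. With both stimuli the count was 11 to 26, where 16.2% to 54.9% of all features were called, and the median was -0.21 to -0.03. The median stayed below 0 in every row of all 3 comparisons.

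The plot of calls and medians by setting shows how far the counts move while the medians against unstimulated cells stay on the same side of 0. Of the 49 single-gene calls over the 6 comparisons, 8 were kept under every alternative run: Ndufa6, Cox7a2l, Sdhb and Ndufb8 with both stimuli, Ndufa6 and Sdhb with opsonised cells, and Uqcrb and Ndufs5-ps with both stimuli against opsonised cells. In all, 29 of the 70 tested subunit genes were called in at least 1 of the 6 comparisons and 41 in none. The same count over all features is not given here. The 29 genes are therefore not set against the whole array. In single comparisons with unstimulated cells, the share called was smaller among members than among all features. It was 22.9% against 37.4% with both stimuli, 18.6% against 23.2% with IFNγ and 7.14% against 13% with opsonised cells.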

How the data were processed

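Labelled RNA of 8 samples was read on bead arrays, and the analysis started from deposited intensity values (linear scale, 25697 probes). The authors used GenomeStudio for them, according to the submitters' processing notes; version and normalization: not given in the sources used here. The sorted columns differed by at most 0.96%, so the arrays had been quantile normalized, and the lowest intensity was 119.8, so no background had been taken off, which understates folds of dim genes. Another deposited table was not used: its 16 per-sample columns match no sample label.

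Groups and replicate numbers came from the sample titles. Gene symbols came from the platform annotation (1 symbol for 23978 probes, several for 0, none for 1719), and RefSeq held 23962 of the Entrez identifiers. Probes were kept when both arrays of at least 1 group reached a floor of 205, set after the values were seen as the log2 mode plus 1.64 SD of the values below it (11620 probes, 45.2%). The brightest probe stood for each gene, which left 8834 features. limma 3.58.1 in R 4.3.3 fitted log2 of the intensity over all 8 arrays with 4 group means and an intensity trend (4 residual degrees of freedom, 22.4 after moderation). P-values were Benjamini-Hochberg adjusted over all 8834 features in each of 6 contrasts, with a threshold of 0.05. Values after ± are standard errors, with 2 arrays a group, and the number of arrays limits the precision.

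The members, gene lists and motifs were chosen with earlier results of these data known. The values of all 8 arrays are printed for members called in a contrast that were among its 3 highest or lowest log2 changes, and for the most and least changed member of each complex with both stimuli. Array values of other members, of Ndufa4, Ndufb8, Ndufs7 and Atp5g3 among them, and of genes outside the members were added after their values were seen. Deviations of arrays with the same replicate number correlated at -0.04 to 0.04 between groups, so the numbers were not taken as pairs. The fit was tested on simulated data. Alternatives were other scalings, background correction, filters, probe rules, fits and leaving out each array.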

Additional observations from a re-analysis of the deposited data

How the results depend on the processing

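The limits are few arrays, a single array per call and the scaling. Across 17 alternatives (16 for the interaction, which has no value from the arrays of 2 groups alone), 662 of 830 recomputed single-gene calls were kept, 168 were lost and 0 reversed. With cyclic loess normalization, the members' median was -0.0256 with both stimuli, -0.0677 with IFNγ and 0.0165 with both stimuli against opsonised cells. Then 4 genes were called with IFNγ (21.1% of all features) and 7 in the last comparison (27.6%). With arrays centred on housekeeping genes, the medians in the same comparisons were -0.21, -0.21 and -0.15. Then 26 genes were called with both stimuli, 17 with both stimuli against opsonised cells and 1 for the interaction. The shares of all features called were 39.4%, 32.6% and 2.56%. Without a filter on dim probes, the median with both stimuli was -0.0919 over 80 genes. Then 7 genes were called with IFNγ, 2 with both stimuli against IFNγ and 7 with both stimuli against opsonised cells. The shares of all features called were 9.87%, 6.09% and 12.4%. With the floor raised to 409.9, 2 genes were called for the interaction (5.68% of all features). With the replicate number as a replicate block, 1 gene was called for the interaction, the calls of Uqcr10 and Cox6b2 with both stimuli against opsonised cells were lost, and every other count of called members stayed within 1.5 times. Leaving out single arrays gave counts of 11 to 19 with both stimuli, 2 to 14 with IFNγ, 3 to 7 with opsonised cells, 0 to 5 with both stimuli against IFNγ, 6 to 11 against opsonised cells and 0 to 2 for the interaction, whose median ranged over 0.0192 to 0.0877. The cause of these changes was not tested. Dim members near the floor, such as Sdhd, Cox6a2 and Cox6b2, have compressed differences.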
